A study of Mus musculus with 7 samples.

Results

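Of 66841 merged H3K27ac peaks, 2829 were centred in an exon of a protein-coding gene and did not overlap the window of 2 kb on either side of a protein-coding transcription start site (TSS). They were chosen by position alone, with the mm10 genome and the GENCODE M21 basic annotation, and are called exon peaks here. Coding sequence held the centre of 1723 of them, a 3′UTR 1078 and a 5′UTR 28, and together they lay in 2116 genes. The other peaks were 16416 at promoters, 21573 in introns, 25965 between genes and 58 on sequences outside the chromosomes.

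The peaks came from A2Lox mouse embryonic stem (ES) cells, a line built to take a single doxycycline-driven transgene, here the neurogenic transcription factor NeuroD1. Its H3K27ac ChIP-seq covered uninduced cells (0 h, no doxycycline) and cells kept in doxycycline at 500 ng/ml for 12 h or 48 h, with 2 libraries at each time point, R1 and R2. All groups carried the transgene, so time and doxycycline were not separated, and there was no doxycycline-treated line without NeuroD1. The labels do not say whether R1 and R2 were separate cultures, so the p-values measure the spread between these libraries, which may be technical.

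H3K27ac is an acetylated lysine on histone H3 that marks active promoters and enhancers. Enhancers are mostly found in introns and between genes, but exons can also carry regulatory sequence. NeuroD1 is a basic helix-loop-helix factor that binds short sequences known as E-boxes and, when forced on in ES cells, starts a neuronal programme.

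The libraries held between 6283103 and 8112895 reads in peaks, and levels below are scaled counts, reads in the peak scaled to the mean library total. Acetylation at the promoters of 8 of 8 ES cell markers was present throughout, with summed scaled counts of 21873 to 22061 at 0 h, 24607 to 24800 at 12 h and 14546 to 19058 at 48 h. Peaks were found at 5 of 12 fibroblast (feeder) marker promoters, which summed to 132 to 143, 77 to 92 and 119 to 222. Of 12 neuronal marker promoters 9 had a peak, with sums of 1058 to 1094, 764 to 793 and 1059 to 1531. The 48 h libraries differed most from each other: promoters took 57.4% of reads in 48 h R1 and 50.3% in 48 h R2. The mean GC content of the peaks, weighted by their reads, was 51.8% and 50.3%. The sequences of the reads were not examined, so these means reflect which peaks held the reads. At 12 h the promoter share was 44.3% and 44.2%, against 52.2% and 53.7% at 0 h.

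The exon peaks kept by the rule sat towards the ends of genes. Their centres lay at a median of 87.0% of the gene's length, and 1545 of them (54.6%) were in the last exon, 1267 in an internal exon, 5 in a first exon and 12 in genes with a single exon. Coding-exon peaks were spread along the gene body and became more frequent towards its end, with 26.0% in the last 10% of its length, whereas 74.3% of 3′UTR peaks were there. The median distance to the start of the gene's own transcript was 12529 bp for coding-exon peaks and 20786 bp for 3′UTR peaks. The rule left out 5243 exon-centred peaks that overlapped the promoter window. The few first exons and the late positions are therefore partly set by the rule. Of the 1545 peaks in a last exon, 1061 were 3′UTR peaks.

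**Figure D1:**
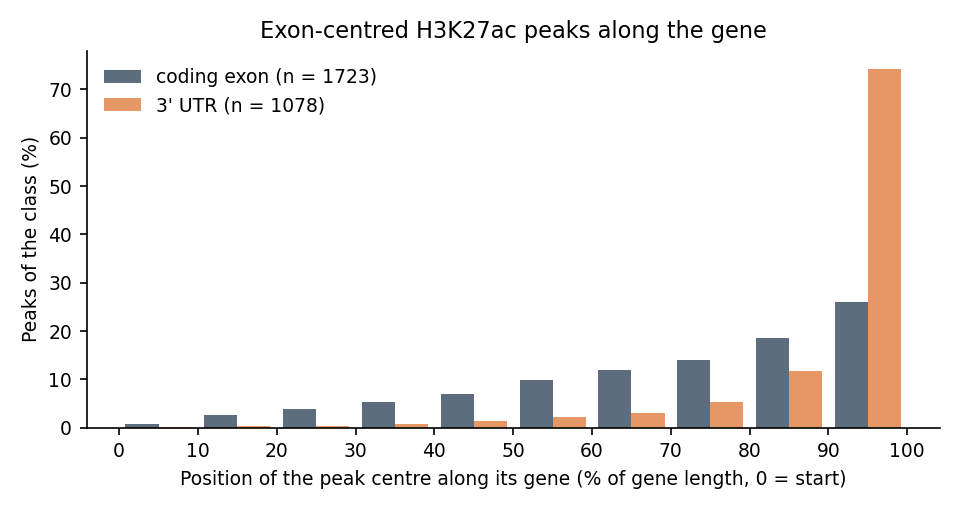
Share of coding-exon peaks (grey, n = 1723) and 3′UTR peaks (orange, n = 1078) whose centre falls in each step of 10% of the gene's length, from start to end. In the last step lay 26.0% of coding-exon peaks and 74.3% of 3′UTR peaks.

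Many of these peaks also covered neighbouring intron. The median peak was 496 bp wide and 80.9% exonic, and 1104 peaks (39.0%) lay wholly in exon sequence. The difference between classes followed exon size: the exon under a coding-exon peak had a median length of 290 bp and that under a 3′UTR peak 2369.5 bp, and the median exonic share was 61.9% and 100%. Exon peaks were GC rich, with a median of 55.9% against 48.7% for intron peaks, 48.3% for intergenic peaks and 54.5% for promoter peaks. Coding-exon peaks were the richer in GC, at 58.1%, while 3′UTR peaks had 51.9%. Repeats masked over 50% of the sequence in 44 exon peaks (1.56%), against 16.9% of intron and 32.6% of intergenic peaks.

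Their height was close to that of intron peaks. The median density was 38.1 scaled counts per kb, against 40.0 for intron, 43.6 for intergenic and 78.8 for promoter peaks, and the median mean count was 18.3 reads. At least 10 reads in at least 2 libraries were found in 2619 of the 2829. The full GENCODE annotation placed a TSS of another kind, such as a non-coding or incomplete transcript, within 2 kb of 1003 exon peaks (35.5%) and inside 318 (11.2%), and whether those peaks mark such starts was not tested. Just inside the edge of the promoter window were 123 exon-centred peaks, 1500 to 2000 bp from a TSS, with a median of 37.1 scaled counts per kb, and just outside it were 139 members with 39.4.

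NeuroD1 binds the E-boxes CAGATG and CAGCTG, and both were searched on both strands in the 500 bp around each peak centre (CAGCTG reads the same on both strands, and the motifs cannot overlap each other). CAGATG was in 963 exon peaks (34.0%), close to the 33.6% of intron peaks, against 29.3% of all peaks on chromosomes. CAGCTG was in 1011 (35.7%), against 26.2% of intron peaks and 25.2% of all peaks on chromosomes. The windows of 30 bases below, read from GRCm38 (mm10), are E-boxes of the exon peaks whose gains are described next. Capitals mark the listed E-box, and a match says only that these letters are there. Not every E-box of these peaks is listed, and the Sall1 window opens with a CAGCTG box left in lower case.

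Dst 3′UTR peak, chr1:34183067-34183096, minus strand: atctgctctgaaCAGATGgcaggatgcagc
Dst 3′UTR peak, chr1:34183080-34183109, plus strand: atctgttcagagCAGATGgtgtctgctaaa
Ky coding-exon peak, chr9:102527720-102527749, minus strand: ccccaacctagcCAGATGtggtcacctttt
Ky coding-exon peak, chr9:102527775-102527804, plus strand: tcctcctgagcaCAGCTGgggggtgaaggc
AI481877 coding-exon peak, chr4:59047795-59047824, minus strand: gtgattcagaatCAGATGtcttttctctgg
AI481877 coding-exon peak, chr4:59047939-59047968, plus strand: tgtgcggtgctgCAGATGgcagcatgcatg
Pitpnc1 3′UTR peak nearer the gene end, chr11:107208724-107208753, plus strand: atcgatctaagcCAGCTGgtgtcctgttac
Pitpnc1 3′UTR peak nearer the gene start, chr11:107210772-107210801, plus strand: tactgacctcacCAGCTGtcggcatacatg
Olfr539 3′UTR peak, chr7:140670241-140670270, plus strand: acaatctttctgCAGATGgcagactctaga
Lifr 3′UTR peak, chr15:7194312-7194341, plus strand: cttttgttcctgCAGCTGgcaacagaagcc
Kcnj9 3′UTR peak, chr1:172320874-172320903, plus strand: ttgagagtgaccCAGCTGgtcccgaaacct
Tox3 3′UTR peak, chr8:90248445-90248474, plus strand: ctgcagttgctgCAGCTGgagatgctgctg
Sall1 coding-exon peak, chr8:89032593-89032622, plus strand: cagctgttgagaCAGATGggagctcagtgt
Ebf2 coding-exon peak, chr14:67237643-67237672, minus strand: tgtcgcaagtgaCAGATGgaatcctcagtg

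The Dst peak carried a pair of CAGATG boxes on opposite strands, and both Pitpnc1 peaks a CAGCTG box. By the annotation, the AI481877, Sall1 and Tox3 sites lie in coding sequence, those of Ky and Ebf2 outside exons, and the other sites printed here in UTRs. No E-box of either kind was in the window of the Tff3, Rtn1 or Osbpl3 peaks, which also gained acetylation. Over all exon peaks, 89 of 1866 without CAGATG gained acetylation by 48 h relative to 0 h (4.77%), 37 of 779 with 1 site (4.75%) and 16 of 184 with 2 or more (8.70%). Among intron peaks the same shares were 9.28%, 14.2% and 18.2%. Over all peaks, with or without an E-box, 8.56% gained, close to the share of the 184 exon peaks with 2 or more sites.

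After 12 h of NeuroD1, called gains outnumbered called losses among 3′UTR peaks, and for coding-exon peaks the larger side differed between fits. Of the 2829, 136 gained (4.81%) and 166 lost (5.87%), as called by edgeR's quasi-likelihood test at a Benjamini-Hochberg adjusted p under 0.05 over all peaks, whereas over all 66841 peaks 9.93% gained and 6.03% lost. The median log2 fold change was -0.30 in exon peaks and -0.08 in all peaks. It was -0.39 in coding-exon peaks and -0.14 in 3′UTR peaks, so the median 3′UTR peak did not gain. Coding-exon peaks had 50 gained (2.90%) and 121 lost (7.02%), and 3′UTR peaks 84 gained (7.79%) and 45 lost (4.17%). Gains also outnumbered losses in intron peaks (10.1% and 2.27%) and intergenic peaks (15.1% and 2.2%). Over all exon peaks, the larger side turned on the scaling. With TMM factors 155 exon peaks gained and 116 lost, 60 and 83 of them in coding exons and 92 and 33 in 3′UTRs. The counts moved with the libraries used: 58 gained and 21 lost without 0 h R1, 24 and 10 without 0 h R2, 57 and 17 without 12 h R1 and 48 and 4 without 12 h R2, while without 48 h R1 the counts were 234 and 399, without 48 h R2 they were 230 and 402, and with only the 4 libraries compared they were 229 and 398. DESeq2 called 67 gained and 22 lost, with 27 gained and 13 lost in coding exons. In 3′UTRs gains outnumbered losses with the settings used here and in all 13 alternatives.

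The gain with the smallest adjusted p was in the last exon of a short transcript of Dst, at chr1:34180808-34185699. Dst encodes dystonin, a giant linker that ties the cytoskeleton to cell junctions. Its 3′UTR peak had scaled counts of 61.6 and 42.5 before induction, 404 and 350.5 after 12 h and 561 and 524 after 48 h. The time points did not overlap and rose at each step, by 2.85 ± 0.22 log2 (SE, n = 2 libraries per time point) in the first 12 h (adjusted p = 8e-09 by edgeR) and 3.38 ± 0.22 over the whole 48 h (adjusted p = 4.3e-10), and the step from 12 h to 48 h was 0.52 ± 0.18 (adjusted p = 0.045). That last step was called in 7 of 13 alternative fits, and the first 2 changes in 13 of 13. Other Dst exon peaks nearby moved with it: the peak on exon 23 of that transcript gained 0.70 ± 0.24 at 12 h and 1.17 ± 0.23 at 48 h, while a peak on exon 7 of the long transcript had -0.49 and -0.69 and was not called.

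Tff3, a secreted trefoil peptide of mucosal surfaces, had the largest log2 fold change at 12 h among exon peaks with a mean of at least 20 reads. Its peak, at chr17:31124803-31125979 and only 16.2% exonic, had 20.5 and 7.43 before induction, 110.4 and 112 after 12 h and 105 and 93.7 after 48 h. The gain of 2.97 ± 0.34 (adjusted p = 1.6e-06) was therefore held at 48 h, where the change from 0 h was 2.81 ± 0.34 (adjusted p = 3e-06).

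Other peaks that gained at 12 h fell back in part or in full by 48 h. A pair of peaks lay in the 3′UTR of Pitpnc1, a phosphatidylinositol transfer protein, wholly inside that exon. The one nearer the gene start (chr11:107209921-107211722) had 34.9 and 28.7 before induction, 212 and 199 after 12 h and 63.3 and 79.1 after 48 h. It gained 2.69 ± 0.26 at 12 h (adjusted p = 2.1e-07) and lost 1.52 ± 0.23 from 12 h to 48 h, a log2 fold change of -1.52 (adjusted p = 0.00016). Its neighbour (chr11:107207945-107209882) gained 2.86 ± 0.29 and then had -1.47 ± 0.26. At 48 h both remained above 0 h, by 1.17 (adjusted p = 0.0056) and 1.39 (adjusted p = 0.0036). These peaks adjoin and were not treated as independent, and the promoter peak of Pitpnc1 was not called in any comparison.

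Ky, a muscle protease, had a coding-exon peak (chr9:102527656-102528209, 21.3% exonic) that was low except at 12 h. Its scaled counts were 4.1 and 7.43, then 41.8 and 45.1, then 7.77 and 15.5. It gained 2.89 ± 0.45 at 12 h (adjusted p = 8.6e-05), fell by 1.85 from 12 h to 48 h (adjusted p = 0.0023), and at 48 h did not pass the test against 0 h (1.04 ± 0.54, adjusted p = 0.22). The coding-exon peak of AI481877, 92.2% exonic, behaved in the same way, with 8.21 and 10.6, 53.6 and 58.9, and 16.7 and 23.2. Lrp1b, a large lipoprotein receptor, had 30.8 and 22.3, 193 and 223, and 37.7 and 106, and its gain was still called at 48 h (1.46, adjusted p = 0.0081), but only 7.35% of that peak was exon. The 3′UTR peak of the olfactory receptor gene Olfr539 gained 2.82 ± 0.39 at 12 h and 1.95 ± 0.41 at 48 h, with 26.6 in 48 h R1 and 72.2 in 48 h R2.

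Among exon peaks with a mean of at least 20 reads and no overlap between the time points, the 8 largest losses at 12 h were all in coding-exon peaks with a GC content between 60.0% and 73.8%. Brdt, a bromodomain protein of the male germline, had 21.6 and 29.7 before induction, 5.36 and 1.84 after 12 h and 46.6 and 19.8 after 48 h. It lost acetylation at 12 h (-2.84 ± 0.58, adjusted p = 0.0019 by edgeR) and regained it by 48 h (3.17 ± 0.56 relative to 12 h, adjusted p = 0.00062). Another annotated TSS lay inside the Brdt peak. Among other named peaks, such a TSS lay inside those of Olfr539, Abhd17a, Dock6, Rhbdd2, Nr4a1, Soga3 and Numa1. It lay within 2 kb of those of Dst, Kcnj9, Notch1, Coro7, Ppp1r13l and Olfr484. These lists are not complete. A pair of adjacent peaks in exon 4 of Prr12, a proline-rich nuclear protein, fell together. The wholly exonic one had 60.5 and 63.7 at 0 h and 16.1 and 16.6 at 12 h (-1.92 ± 0.38, adjusted p = 0.0012), and at 48 h the libraries split, with 51.1 in R1 and 19.8 in R2. The promoter peak of Prr12 also fell at 12 h, by 0.72 on the log2 scale (adjusted p = 0.0048). Fbrsl1, the kinase gene Lmtk3, Snrnp70 of the U1 spliceosomal particle, the depalmitoylase gene Abhd17a and the p53 inhibitor gene Ppp1r13l followed, with log2 fold changes from -1.70 to -1.47.

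GC content moved with the 12 h change in every position class. Of 282 exon peaks with a GC content under 45%, 60 gained and 0 lost at 12 h by edgeR, and of 720 with 60% or more, 3 gained and 72 lost. Gains under 45% GC were 21.3% of exon, 19.6% of intron and 30.6% of intergenic peaks. Losses at 60% or more were 10.0%, 10.8% and 7.73%. The median log2 fold change of exon peaks went from 0.53 under 45% to -0.62 at 60% or more. For intron peaks of the same GC content it went from 0.44 to -0.47. Within these GC bands coding-exon and 3′UTR peaks lay close together, at 0.44 and 0.58 under 45% and at -0.61 and -0.71 at 60% or more. With a GC term in the fit, 145 exon peaks gained and 111 lost at 12 h (8.06% and 6.47% of all peaks), with a median of -0.12. Coding-exon peaks were then even, at 69 gained and 67 lost, and 3′UTR peaks had 75 and 44. The GC content of the sequenced reads was not measured, and its part in the 12 h losses was not tested.

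**Figure D2:**
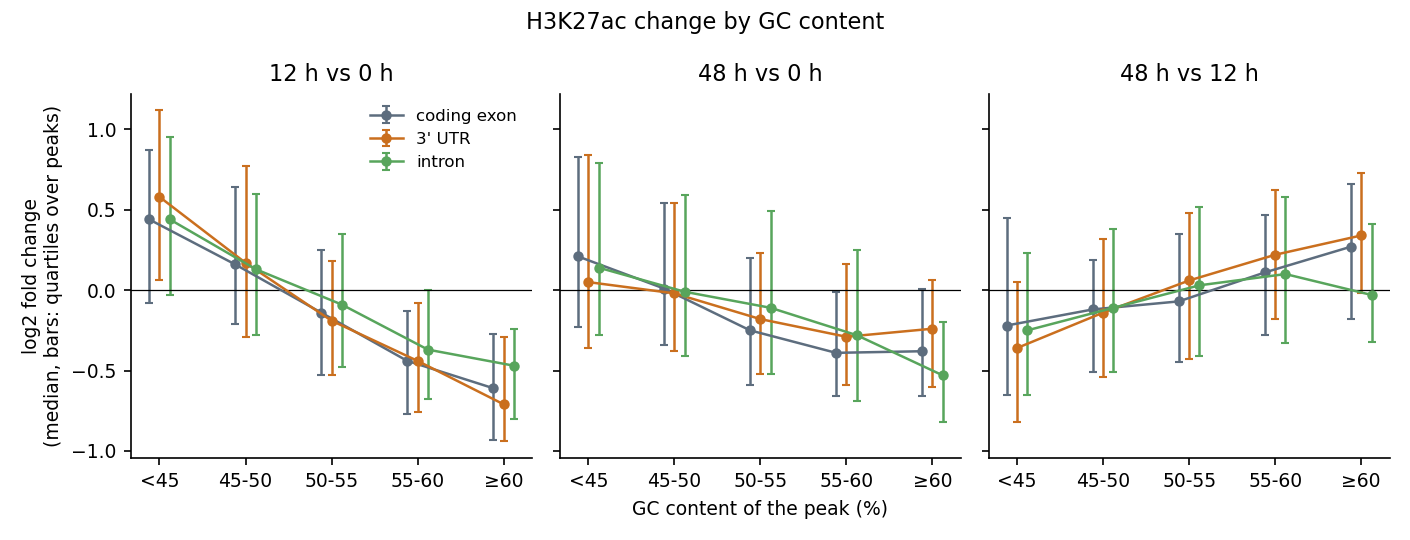
Median log2 fold change of coding-exon (grey), 3′UTR (orange) and intron peaks (green) by the GC content of the peak, for the 3 comparisons, with bars for the quartiles over peaks. At 12 h vs 0 h the medians run from 0.44, 0.58 and 0.44 under 45% GC to -0.61, -0.71 and -0.47 at 60% or more.

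At 48 h relative to 0 h, more exon peaks gained than lost: 142 gained (5.02%) and 99 lost (3.5%), while over all peaks 8.56% gained and 5.45% lost. The median change was -0.24 in exon peaks and -0.04 in all peaks. Coding-exon peaks were balanced, with 56 gained and 57 lost, and 3′UTR peaks had 82 gained and 42 lost. With the GC term the counts were 181 and 169 (11.1% and 9.37% of all peaks), 79 and 88 in coding exons and 97 and 80 in 3′UTRs. Without 0 h R1 they were 76 and 32, without 0 h R2 36 and 15, without 12 h R1 116 and 52, without 12 h R2 116 and 51, without 48 h R1 161 and 217, and without 48 h R2 198 and 199, so the balance of gains and losses turned with either 48 h library removed. TMM factors gave 154 and 67 (62 and 41 in coding exons), DESeq2 84 and 27 (30 and 14), and the 4 libraries compared 118 and 53.

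**Figure D3:**
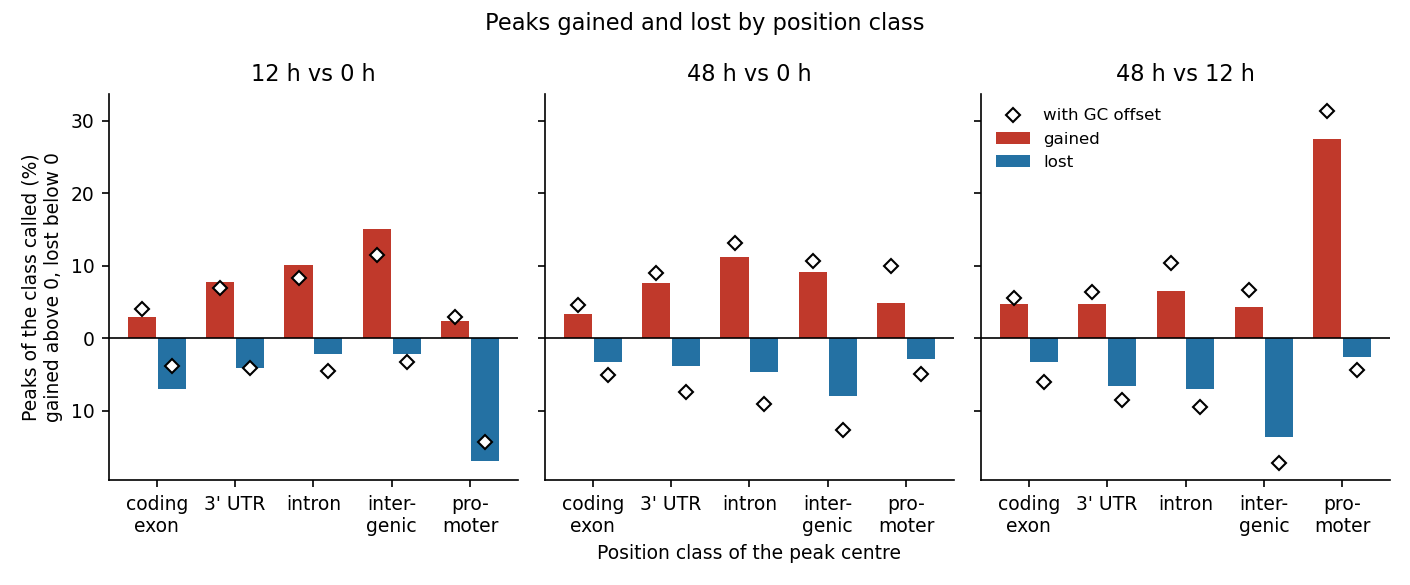
Share of peaks gained (red, above 0) and lost (blue, below 0) in each position class for the 3 comparisons, with open diamonds for the fit with a GC offset. At 12 h vs 0 h, 2.90% of coding-exon peaks gained and 7.02% lost, and with the GC offset 4.00% and 3.89%.

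Of the largest gains at 48 h, those in Rtn1, Kcnj9 and Lifr were not called at 12 h and were called from 12 h to 48 h. Rtn1 encodes a reticulon of the neuronal endoplasmic reticulum, and its coding-exon peak (chr12:72303275-72304505) had 9.24 and 10.6 before induction, 15 and 17.5 after 12 h and 127 and 56.8 after 48 h. It gained 3.17 ± 0.40 at 48 h (adjusted p = 6e-06) and 2.46 ± 0.37 from 12 h to 48 h (adjusted p = 0.00013), with no call at 12 h. Kcnj9, a subunit of the G protein-gated potassium channels of neurons, had a 3′UTR peak (chr1:172320177-172321187) with 10.3 and 9.55, then 18.2 and 12, then 63.3 and 47.3, a gain of 2.45 ± 0.38 (adjusted p = 6.9e-05). The Rtn1 and Kcnj9 peaks were low until after 12 h, and the naming rule required their 48 h libraries to stand above all 4 others.

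Tox3, an HMG-box protein, gained in its 3′UTR at both times, from 9.24 and 5.31 to 32.2 and 23, and then to 44.4 and 45.6 (2.60 ± 0.41 at 48 h, adjusted p = 8.2e-05). The promoter peak of Tox3 gained 1.98 at 48 h (adjusted p = 0.00013) but had -0.08 at 12 h. Lifr encodes a subunit of the receptor for LIF, the cytokine of the ES medium. The Lifr 3′UTR peak had 12.3 and 10.6, 24.7 and 18.4, and 57.7 and 76.5 (2.54 ± 0.35 at 48 h, adjusted p = 1.9e-05 by edgeR). By the same test it was not called at 12 h (0.89 ± 0.41, adjusted p = 0.13) and gained 1.65 ± 0.32 from 12 h to 48 h (adjusted p = 0.0012). The 3′UTR of Osbpl3, an oxysterol-binding protein, went from 31.8 and 18 to 125 and 149.9 and stayed at 113 and 169.

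Losses at 48 h were smaller than the gains, with log2 fold changes from -1.49 to -1.27 among the 8 largest under the same limits on reads and overlap. The 3′UTR peak of Glt1d1, a glycosyltransferase-like gene, stepped down from 73.9 and 73.2 through 39.7 and 38.6 to 22.2 and 30.1 (-1.47 ± 0.29 at 48 h, adjusted p = 0.0012). Rhbdd2, a rhomboid-like membrane protein, kept its 3′UTR signal at 12 h and lost it afterwards, with 118 and 117, 148 and 159, and 35.5 and 49 (-1.46 ± 0.25 against 0 h, adjusted p = 0.00032, and -1.84 ± 0.25 against 12 h, adjusted p = 5.2e-05). Pex26, which anchors the import machinery of peroxisomes, had 94.4 and 89.2, 74 and 63.5, and 37.7 and 37. The others were in Dock6, Coro7, Prag1, Socs7 and Nr4a1, the last an immediate-early nuclear receptor.

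**Figure D4:**
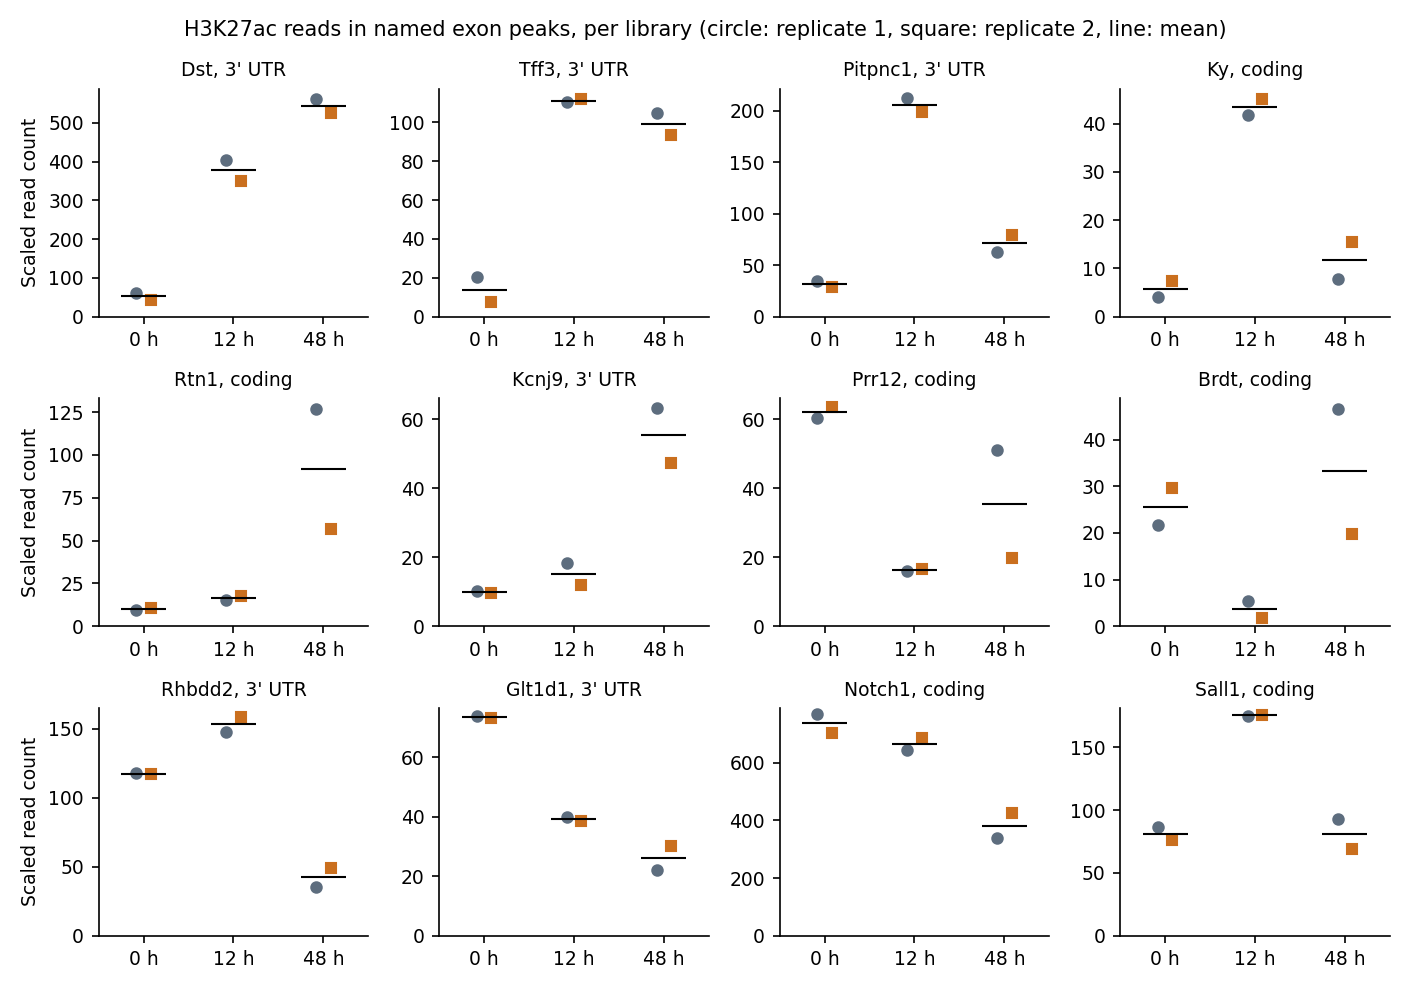
Scaled H3K27ac counts of 12 named exon peaks in each library at 0 h, 12 h and 48 h, with circles for R1, squares for R2 and a line for the mean. Dst rises at each step, Ky and Sall1 are high only at 12 h, Brdt and Prr12 are lowest at 12 h, and Notch1 and Rhbdd2 fall after 12 h.

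From 12 h to 48 h, 139 exon peaks gained (4.91%) and 129 lost (4.56%), against 10.7% and 8.43% of all peaks, and the median was 0.06 against -0.03. The classes went opposite ways, with 81 gained and 57 lost in coding exons and 51 and 71 in 3′UTRs, but with the GC term both lost more than they gained (95 and 105, 69 and 92), as did exon peaks as a whole (172 and 198, against 13.9% and 11.1% of all peaks). Counts without 48 h R2 were 357 and 254 and without 48 h R1 81 and 122. They were 32 and 30 without 12 h R1, 8 and 23 without 12 h R2, 88 and 89 without 0 h R1, and 84 and 89 without 0 h R2. With the 4 libraries compared they were 81 and 89, and DESeq2 gave 45 and 76, with losses ahead in both coding exons (24 and 31) and 3′UTRs (18 and 45).

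Late gains included Soga3, with 25.7 and 25.8 at 12 h and 154 and 76.5 at 48 h (2.14 ± 0.32, adjusted p = 0.00014), and the 5′UTR peak of the sialyltransferase gene St3gal2, with 56.4 and 55.2 before induction, 54.7 and 36.8 after 12 h and 224 and 127 after 48 h (1.94 ± 0.29 from 12 h, adjusted p = 0.00012). In each, 48 h R1 stood well above 48 h R2. Ctif, Numa1, the spindle organiser, and Alad of haem synthesis also gained, by 2.03, 1.87 and 1.78. The T-box gene Tbx3, Olfr484 and the flippase gene Atp9a lost acetylation over the same interval (-1.51, -1.65 and -1.47).

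Of the orders of the 3 time points that were counted, the most frequent was a level highest before induction. In 652 exon peaks (23.0%) both 0 h libraries stood above the other 4, against 16.0% of all peaks, and in 306 (10.8%) both 12 h libraries stood highest, against 17.8%. The 12 h libraries were lowest in 520 (18.4%, as in all peaks). Peaks that rose at each step without overlap numbered 83 (2.93%, against 4.00%) and those that fell at each step 115 (4.07%, against 5.04%).

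The counts for the gene lists below stand against 9.93% gained and 6.03% lost over all peaks at 12 h, 8.56% and 5.45% at 48 h relative to 0 h, and 10.7% and 8.43% from 12 h to 48 h, and their medians against -0.08, -0.04 and -0.03.

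Few genes of the neuronal transcription factor list had an exon peak, 8 of 52, and 3 of these changed in a way that held with the GC term. Over these 8 peaks 1 gained and 1 lost at 12 h, and 2 gained and 1 lost at 48 h relative to 0 h, with medians of 0.00 and 0.82, and 1 gained and 1 lost from 12 h to 48 h with a median of 0.38. Ebf2, a factor of early neuronal differentiation, had a peak at exon 3 (29.3% exonic) with 2 and 0 reads at 0 h, which is too few for a fold, and scaled counts of 20.4 and 16.6 at 12 h and 30 and 11.2 at 48 h (adjusted p = 0.0019 and 0.0011). Its promoter peak gained 1.82 at 12 h and 3.06 at 48 h. Sox11, a single-exon gene of immature neurons, gained in its 3′UTR only at 48 h, from 132 and 82.8 to 296 and 156 (1.06 ± 0.27, adjusted p = 0.0099), as did its promoter peak (0.97, adjusted p = 0.0016). Scrt2, a neural zinc finger repressor, went the other way in its 3′UTR, from 538 and 668 at 0 h and 585 and 558 at 12 h to 349 and 344 at 48 h (-0.80 ± 0.17, adjusted p = 0.002). The loss in Tcf3, the E-protein partner of such factors, at 12 h (-1.36 ± 0.38, adjusted p = 0.016) was not called with the GC term.

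The pluripotency list had 26 exon peaks in 16 of 41 genes, of which 1 gained and 3 lost at 12 h (3 and 3 with the GC term), 1 gained and 2 lost at 48 h relative to 0 h, and 0 gained and 4 lost from 12 h to 48 h by edgeR (1 and 3 with the GC term). The medians were -0.26, -0.49 and -0.14. Klf5, a Kruppel-like factor of ES cells, lost acetylation in both its exon peaks by 48 h, and its promoter peak fell with them (-0.89, adjusted p = 0.0018). Its 3′UTR peak had 56.4 and 39.3, 52.5 and 44.2, and 18.9 and 28.4 (-0.99 ± 0.33, adjusted p = 0.043). Sall1, a zinc finger factor, had a coding-exon peak (chr8:89031433-89033460) that was high only at 12 h, with 86.2 and 76.4, 175 and 176, and 93.3 and 68.8. It gained 1.11 ± 0.23 at 12 h (adjusted p = 0.0023) and had -1.12 ± 0.23 afterwards (adjusted p = 0.0022), while the promoter peak of Sall1 was not called (-0.19 and -0.05). Lin28a gained in its 3′UTR at 48 h, from 5.13 and 8.49 to 31.1 and 18.9 (adjusted p = 0.013). The 12 h losses in Zscan10 and Jarid2 were not called with the GC term.

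Genes of the Notch pathway, which holds neural precursors back from differentiation, had 12 exon peaks in 7 of 28 genes, with 1 loss at each comparison and 0 gains by edgeR, and medians of -0.50, -0.50 and 0.10. The tall peak over the last exon of the receptor gene Notch1 (chr2:26457156-26462279) had 769 and 705 before induction, 644 and 686 after 12 h and 339 and 425 after 48 h. It lost 0.95 log2 by 48 h, a log2 fold change of -0.95 ± 0.17 (adjusted p = 0.00032, called in 13 of 13 alternative fits). The promoter peak of Notch1 moved the other way over the same interval and gained 0.64 (adjusted p = 0.017). The loss in Notch3 at 12 h was not called with the GC term. Nodal, TGF-beta, BMP and FGF genes had 17 exon peaks in 12 of 41 genes, with 1 loss at 12 h and the same 1 gain at 48 h against both earlier times (1 gained and 1 lost in each with the GC term), and medians of -0.09, -0.34 and -0.17. Smad7, an inhibitor of TGF-beta signalling, gained in its 3′UTR at 48 h, from 43.1 and 44.6 to 112 and 61.1 (0.96 ± 0.30, adjusted p = 0.031), and Inhbe lost at 12 h (-0.95 ± 0.31, adjusted p = 0.042), but not with the GC term.

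Synapse and RNA-binding genes had the most exon peaks of the fixed lists after chromatin genes, 45 in 27 of 75 genes. At 12 h 2 gained and 7 lost, at 48 h 3 gained and 4 lost relative to 0 h, and from 12 h to 48 h 3 gained and 2 lost, with medians of -0.65, -0.37 and 0.33. The neuronal RNA-binding protein gene Elavl2 gained in its 3′UTR at both times, from 92.4 and 76.4 to 206 and 197, and then 167 and 287 (1.25 ± 0.25, adjusted p = 0.0012, and 1.43 ± 0.24, adjusted p = 0.00024). Its relative Elavl3 lost in a pair of 3′UTR peaks at 12 h (-1.57 ± 0.41 and -1.39 ± 0.40). Gabbr1, a GABA receptor subunit, gained from 19.5 and 25.5 to 45 and 45.1, and then 50 and 52.5. The splicing factor gene Rbfox2 lost after 12 h in a broad 3′UTR peak, with 511 and 484, 506 and 542, and 304 and 336 (-0.71 ± 0.17 from 12 h, adjusted p = 0.0055). The 3′UTR peaks of the postsynaptic scaffold genes Shank1 and Dlgap3 lost acetylation at 12 h and regained it by 48 h, and that of Shank1 had 160.1 and 166, 64.3 and 81.9, and 177 and 111. A taller coding-exon peak of Dlgap3 was not called at 12 h and lost acetylation afterwards (-0.67 from 12 h to 48 h).

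Chromatin genes had 47 exon peaks in 25 of 63 genes, with 2 gained and 3 lost at 12 h (4 and 1 with the GC term), 4 gained and 2 lost at 48 h (6 and 1), and 4 gained and 0 lost from 12 h to 48 h by edgeR (4 gained and 2 lost with the GC term). The medians were -0.33, -0.31 and 0.13. Phc2, a Polycomb subunit, gained at 48 h at a coding exon, from 57.5 and 67.9 to 194 and 103, and in the 3′UTR, from 6.16 and 6.37 to 27.8 and 21.5, and its promoter peak gained 1.64 (adjusted p = 3.8e-05). Kdm2b, a histone demethylase, gained at its last exon at 12 h, from 196 and 158 to 386 and 397 (1.14 ± 0.23, adjusted p = 0.0014), and at 48 h its libraries stood at 221 and 419.6. The demethylase gene Kdm6b fell in a pair of coding-exon peaks at 12 h, of which 1 was called with the GC term. Cytoskeleton and migration genes had 17 exon peaks in 10 of 69 genes and 0 calls at 12 h by edgeR, and at 48 h Tspan5, a tetraspanin, gained (1.91 ± 0.40, adjusted p = 0.002) and the spectrin gene Sptbn4 lost (-1.08 ± 0.26, adjusted p = 0.0059). From 12 h to 48 h 2 gained and 0 lost by edgeR, in Tspan5 and the ephrin gene Efnb2, but with the GC term 2 gained and 4 lost, and the 3 medians were -0.08, -0.34 and -0.15.

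Exon peaks clustered within genes, and 509 genes held 2 or more, 1222 peaks in all, with another exon peak within 1 kb of 672. Peaks of 1 gene were not treated as independent. Zfhx2, a homeobox gene, held 7, none of which was called in any comparison, with scaled counts at 0 h from 4.1 to 113. Prrc2b, the receptor phosphatase gene Ptprf and Sptbn4 held 6 each, of which 1 in each was called (a loss at 12 h, a gain at 48 h and a loss at 48 h). Amotl2 held 5, with 0 calls by edgeR. Other genes also held 5, Dst among them, and Amotl2 was taken as the first of these by alphabet.

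The tallest and widest exon peaks were broad domains that only partly overlapped an exon. Per kb, the highest were in Kank3, Pgpep1, Pura, Bad and Bicral. Pgpep1, a peptidase gene, had 1312 and 1394 before induction, 1815 and 1531 after 12 h and 658 and 827 after 48 h, a loss called against both earlier times (-0.86 ± 0.15, adjusted p = 0.00037, and -1.17 ± 0.15, adjusted p = 3.8e-05). Kank3, Pura and Bad were not called in any comparison. The widest, in Dennd5b, covered 14942 bp of which 38.9% was exon, and Bicral, a subunit of a chromatin remodelling complex, held a pair of peaks of 12777 bp and 8950 bp that both lost acetylation at 48 h (-0.51 ± 0.15 and -0.99 ± 0.15). Eif4e2, a cap-binding protein, gained at 12 h and fell back, with 1086 and 1059, 1829 and 1855, and 797 and 1355.

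Changes at exon peaks went with those of nearby non-exonic peaks. Of exon peaks that gained at 12 h, 89 had an intron or intergenic peak within 10 kb, and for 61 (68.5%) such a neighbour also gained, against 10.6% of uncalled exon peaks. At 48 h relative to 0 h the shares were 72.6% (69 of 95) and 7.55%. For losses a neighbour also fell in 23.9% at 12 h (8.76% of uncalled peaks) and in 36.6% at 48 h (11.8%). Opposite calls were rare, with a gained neighbour beside 2 of 113 lost exon peaks at 12 h and beside 0 of 82 at 48 h by edgeR.

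The promoter of the host gene was called in the same direction in a minority of called exon peaks. A promoter peak was found for the host gene of 2516 exon peaks (where a gene had several, the one with the most reads was used). Among exon peaks that gained at 12 h, 9 of 91 had a gained promoter (9.89%) and 8 a lost one (8.79%), where 2.38% and 25.3% of all 2516 did. Among those that gained at 48 h relative to 0 h, 28 of 110 had a gained promoter (25.5%) and 1 a lost one, where 4.93% and 5.21% of all did. Among exon peaks that lost, 58 of 158 had a lost promoter at 12 h (36.7%) and 11 of 87 at 48 h (12.6%). The remaining gains at 48 h, 81 of 110, were in genes whose promoter peak was not called. From 12 h to 48 h, 49 of 123 gained exon peaks had a gained promoter (39.8%), where 31.4% of all 2516 did. Of 100 lost exon peaks, 24 had a gained promoter and 2 a lost one over that interval, where 3.5% of all had a lost one.

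**Figure D5:**
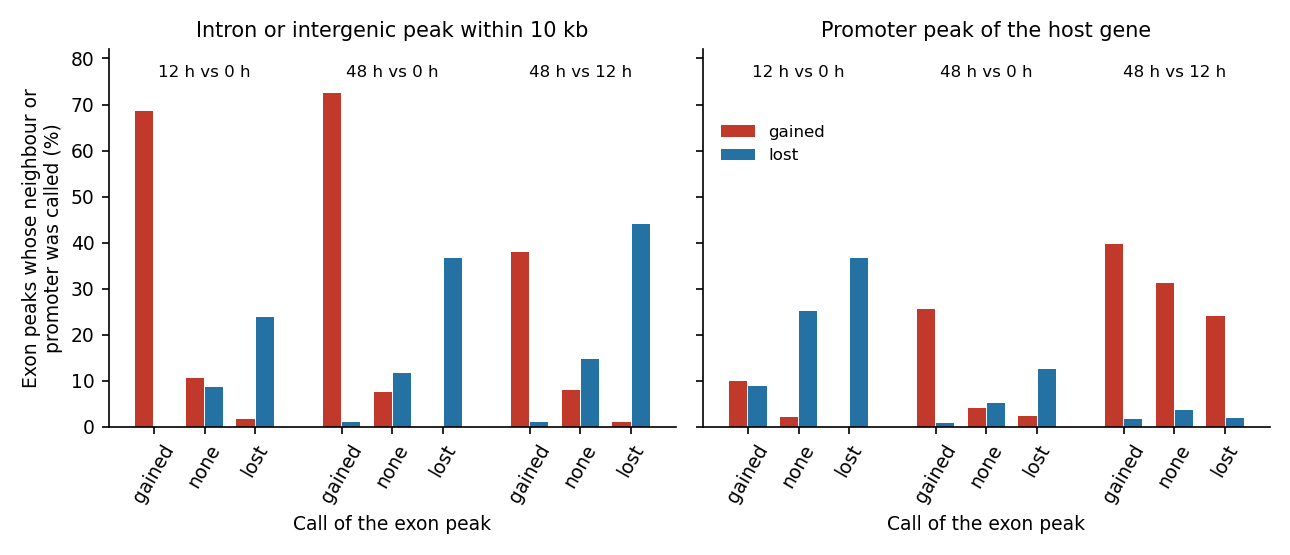
Share of gained, uncalled (none) and lost exon peaks that had a gained (red) or lost (blue) intron or intergenic peak within 10 kb (left) or a gained or lost promoter peak of the host gene (right), for each comparison. At 48 h vs 0 h, 72.6% of gained exon peaks had a gained neighbour and 25.5% a gained promoter.

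Exon peaks took a small share of the reads. The share was 1.97% and 1.99% before induction, 1.94% and 1.85% after 12 h and 1.77% and 1.78% after 48 h, which is 1.98% ± 0.019, 1.89% ± 0.063 and 1.78% ± 0.013 (SD, n = 2). The groups did not overlap, and an exact permutation test over the 3 time points gave p = 0.0667, the smallest that the 90 arrangements of 6 libraries allow. Coding-exon peaks had 1.04% ± 0.024 at 0 h and 0.900% ± 0.039 at 12 h, while 3′UTR peaks went from 0.918% ± 0.0038 to 0.972% ± 0.022 and then to 0.852% ± 0.059 at 48 h. These shares depend on all other peaks, and that of promoters moved at the same time, from 52.9% to 44.3% and 53.9%.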

How the data were processed

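H3K27ac ChIP-seq libraries of A2Lox ES cells were sequenced by the authors, aligned to mm10 with Bowtie2 in local mode and handled with SAMtools 0.1.19, after FastQC. Peaks were called with MACS2 against input and merged. The deposited table holds raw read counts per merged peak, counted by the authors with QuasR, with no normalization. The input library was not analysed here.

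Peak centres were assigned to exons with GENCODE M21 basic. Levels were counts scaled to the mean library total. All 66841 peaks were fitted in edgeR 4.0.16 (glmQLFit, glmQLFTest) under R 4.3.3, with time as the factor, all 6 libraries, library totals as the offset and no filter, and called at a Benjamini-Hochberg adjusted p under 0.05. The procedure was tested on simulated data. The biological coefficient of variation was 14.9% with 3 residual degrees of freedom. The SE of a log2 fold change was its absolute value divided by the square root of the test's F statistic. It therefore rests on a spread estimated from all 6 libraries and shared between peaks, not on the 2 libraries of a time point alone. Library totals ran from 6283103 to 8112895 reads, which limits precision in low peaks. Alternatives were TMM factors, DESeq2 1.42.0, a filter (10 or more counts in 2 libraries), a replicate block, a GC offset (lowess, span 0.3), only the 4 libraries compared and each library left out.

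Members, gene lists and tests were chosen with earlier results of these data known. Named were, per comparison, the 8 gained and 8 lost peaks of largest absolute log2 fold change with a mean of at least 20 counts and time points that did not overlap, up to 3 per direction from each list, the 5 highest and 5 widest peaks, and the 5 genes with the most peaks. An item that this rule names is not reported here.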

Additional observations from a re-analysis of the deposited data

Results flagged for a closer look

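The effects of 12 h and of 48 h of induction differed at some exon peaks, by edgeR's direct test of 48 h against 12 h. At 48 h 139 exon peaks were higher (4.91%) and 129 lower (4.56%), against 10.7% and 8.43% of all peaks. Among the named peaks, 17 were called one way at 12 h against 0 h and the other way from 12 h to 48 h. Of these, 9 had a gain first and 8 a loss first. Both tests use the same 12 h libraries, and many of these peaks were named for a large 12 h change, so opposite calls are partly built in. The log2 fold change from 12 h to 48 h after a gain was -1.85 for Ky, -1.65 for Olfr484, -1.52 and -1.47 for the Pitpnc1 peaks, -1.50 for Lrp1b, -1.47 for both AI481877 and Atp9a, -1.12 for Sall1 and -0.77 for Eif4e2. After a loss it was 3.17 for Brdt, 1.70 for Lmtk3, 1.31 for Abhd17a, 1.2 for Ppp1r13l, 1.15 for a Prr12 peak, 1.10 for Fbrsl1, 0.96 for Shank1 and 0.75 for Dlgap3. Lrp1b and both Pitpnc1 peaks stayed above 0 h at 48 h by the same test. The gain of Olfr484 at 12 h (adjusted p = 0.049) was not called with the GC term. Groups of 2 libraries allow no check for a library far from the others.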

How the results depend on the processing

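Every alternative kept the direction of the 103 named changes, and 29 stayed past the threshold under all of them. These changes were named because they were called in the same libraries, many with time points that did not overlap. A kept direction was therefore largely set by that choice. DESeq2 gave 67 gained and 22 lost at 12 h, 84 and 27 at 48 h relative to 0 h, and 45 and 76 from 12 h to 48 h. With only the 4 libraries compared, the counts at 12 h were 229 and 398, the losses at 48 h numbered 53, and the gains from 12 h to 48 h 81. The GC offset raised the losses to 169 at 48 h and 198 after 12 h. Leaving out each library gave 24 to 234 gained and 4 to 402 lost at 12 h, 36 to 198 and 15 to 217 at 48 h, and 8 to 357 and 23 to 254 from 12 h to 48 h. Each library's omission left 1 time point with a lone sample, assumed to vary like the others. The cause of these moves was not tested. The share of reads in exon peaks at 48 h was 1.76% with the count filter, and with a library left out it was 1.97% to 1.99% at 0 h, 1.85% to 1.94% at 12 h and 1.77% to 1.78% at 48 h. TMM factors gave 155 and 116, 154 and 67, and 144 and 128.

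Replicate numbers did not pair the libraries: deviations of same-numbered libraries from their group means correlated at -0.0362, -0.0496 and 0.078. With the replicate block, 143 peaks gained and 173 lost at 12 h, 146 and 107 at 48 h, and 145 and 134 from 12 h to 48 h. With the block and the GC offset together the losses were 187 at 48 h and 218 after 12 h. Low peaks were called less often: of 1525 exon peaks with a mean under 20 reads, 41 gained and 37 lost at 12 h, and of 255 with 100 or more, 30 and 28.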
